A study of Mus musculus with 12 samples.

Results

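The genes described here are 35 targets of the transcription factor p53 other than Mdm2 and Cdkn1a. They were taken from a list of names that was chosen with earlier results of these data known. All 35 were found among the 16386 genes listed for PSC4, a mouse pancreatic stellate cell line. They were also among the 15309 listed for KPC4, a mouse pancreatic cancer cell line. By RNA sequencing of 12 samples, the level of each gene was compared between media derived from gemcitabine-treated and from vehicle-treated tumour cells. PSC4 cells were kept for 24 h in Control-SU or Gem-SU, the medium that KPC4 cells had conditioned for 14 h after 6 h with vehicle or with 10 µM gemcitabine, a nucleoside analogue used as chemotherapy, and a wash. KPC4 cells were kept for 24 h in Control-PSC-SU or Gem-PSC-SU, the medium that PSC4 cells had conditioned for 18 h after 6 h in Control-SU or Gem-SU and a wash. All 4 groups had 3 biological replicates, every donor culture conditioned starvation medium, and cells given the drug alone were not analysed here. Each cell type was thus a single line, and the p53 genotype of either line was not given in the sources used here.

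p53 is kept low in unstressed cells by Mdm2, which marks it for degradation. After DNA damage and other stress it accumulates, binds response elements in DNA and raises genes that halt the cell cycle, repair DNA, start cell death or change metabolism. Several of its targets, Mdm2 among them, act back on p53 itself. The 35 genes were ordered by these roles: 8 act in arrest, mitosis and feedback, 12 in death and survival, 5 in DNA repair and 10 in metabolism and growth signalling.

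Library totals lay between 29559414 and 38138356 counts in PSC4 and between 26354328 and 34744150 in KPC4. Of 12 stellate cell and fibroblast markers 11 were listed for PSC4, and of 12 epithelial markers 11 were listed for KPC4. The epithelial markers summed to between 15.95 and 16.42 CPM (counts scaled to library size) in PSC4 controls and between 6035 and 7489 CPM in KPC4 controls, and Epcam and Cdh1 were not listed for PSC4. The stellate markers of PSC4 summed to between 8139 and 8705 CPM in the controls and to between 2457 and 3671 CPM with Gem-SU, and their part in the PSC4 results was not tested. The RNA came from whole cultures, so fewer cells of a type and less RNA per cell cannot be told apart.

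Promoter sequences are shown because p53 acts on its targets through a response element in DNA. This element joins 2 copies of a 10-base unit, and its consensus reads the same on both strands. It was searched, without a spacer between the copies, in RefSeq windows on build GRCm38.p6 that run from 250 bases before to 50 bases after each annotated start. A window was found for 27 of the 35 genes. At most 1 mismatch to the 20-base consensus stood in the windows of 3 of these 27 genes (11.1%), against 0.107% of all 27025 genes with a window. At most 2 mismatches stood in 4 of 27 (14.8%) against 0.94%, and at most 3 in 8 of 27 (29.6%) against 7.2%. The 4 closest matches and that of Sesn1, which fell in PSC4, are printed 5′ to 3′ on the strand of the gene, with the match in capitals and with up to 20 bases on either side.
Ccng1: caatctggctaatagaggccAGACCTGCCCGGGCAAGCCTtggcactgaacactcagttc
Gtse1: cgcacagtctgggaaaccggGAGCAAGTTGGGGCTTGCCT
Rps27l: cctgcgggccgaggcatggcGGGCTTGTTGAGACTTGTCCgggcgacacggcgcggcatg
Zfp365: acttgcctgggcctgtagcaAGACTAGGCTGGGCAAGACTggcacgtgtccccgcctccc
Sesn1: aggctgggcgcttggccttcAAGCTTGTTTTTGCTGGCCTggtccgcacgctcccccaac

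The Ccng1 stretch lies at chr11:40755442-40755501 on the minus strand, and its match, with 1 mismatch, begins 195 bases upstream of the start, outside any annotated gene. That of Gtse1 (chr15:85859925-85859964, plus strand) has 1 mismatch, begins 1 base upstream of the start and runs into the first exon. That of Rps27l (chr9:66946276-66946335, plus strand) has 1 mismatch and begins 117 bases upstream of 1 of its 2 annotated starts, in an intron of the gene model that begins at the other. That of Zfp365 (chr10:67912686-67912745, minus strand) has 2 mismatches and begins 63 bases upstream, outside any annotated gene. The Sesn1 stretch (chr10:41887246-41887305, plus strand) has 3 mismatches, begins 173 bases upstream of the start used and lies in an intron of another Sesn1 model. In PSC4 the log2 fold change was 2.5 for Ccng1, 3.96 for Gtse1, 0.36 for Rps27l, 1.17 for Zfp365 and -1.40 for Sesn1. A match of letters does not show that p53 binds there, and 23 of the 27 windows held none with 2 mismatches or fewer, Plk2, Plk3, Eda2r and Ddit4l included.

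In PSC4 cells, most of the 35 genes rose when the medium came from gemcitabine-treated tumour cells. With Gem-SU 29 rose and 1, Sesn1, fell, while 5 did not pass the test. The test was edgeR's quasi-likelihood test with adjustment of p over all genes and a threshold of 0.05. All 35 genes passed the filter on low counts. Perp and Ddit4l passed it through their Gem-SU libraries alone, so they could enter this test only as genes that were higher. Among the 13347 genes tested 46.3% passed, 24.3% higher and 22% lower. The median log2 fold change was 1.59 over the 35 genes and -0.0032 over all genes tested. The 3 Gem-SU libraries lay entirely above the 3 controls for 29 of the 35 genes (29.3% of all genes tested) and entirely below for 2 (27.1%). All 29 genes that rose kept their direction when any library was left out.

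**Figure D1:**
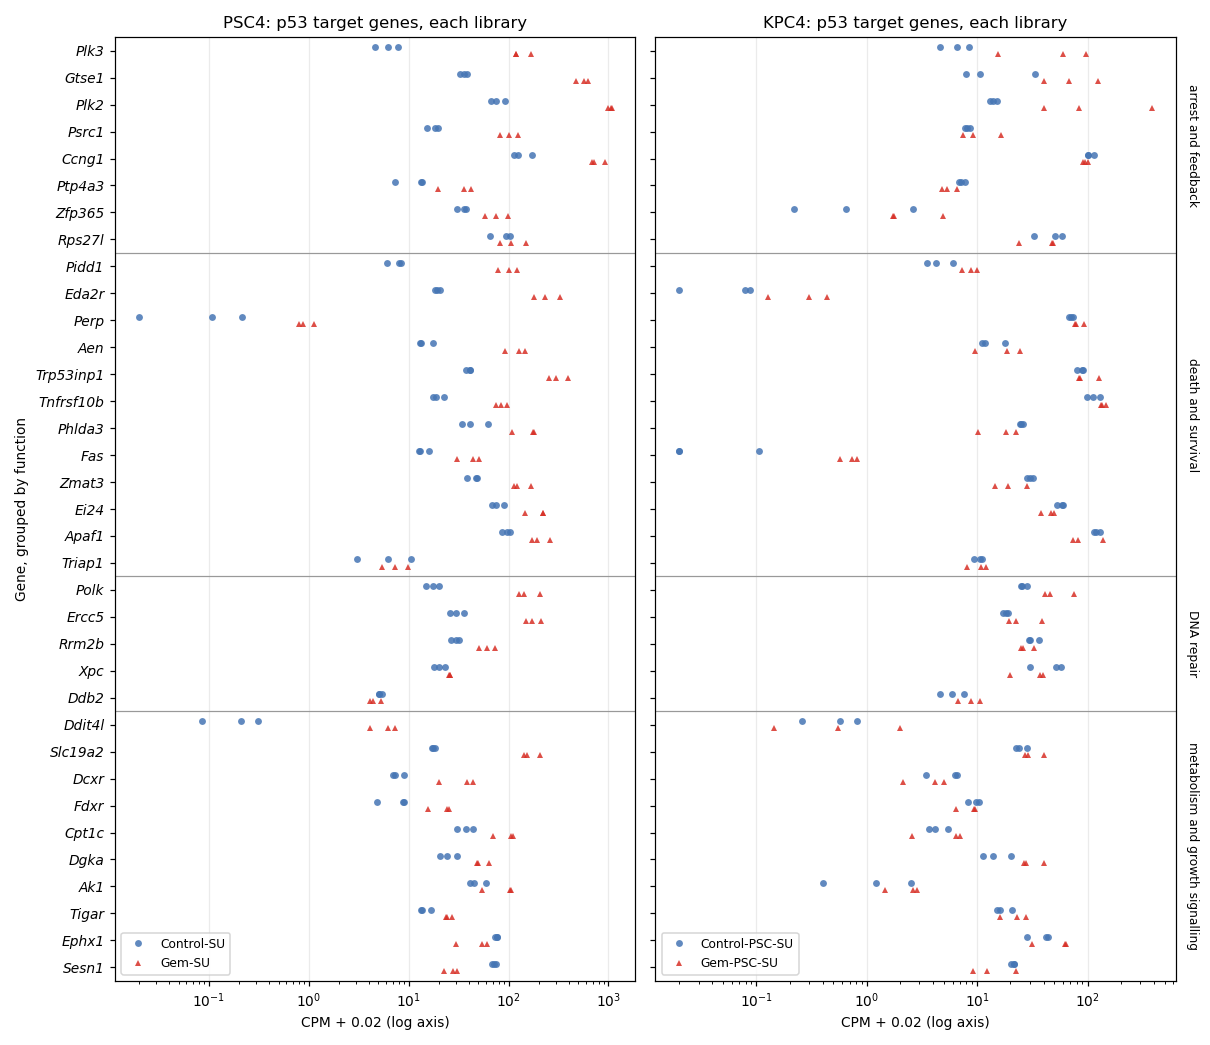
Level of each of the 35 genes in each library, as CPM + 0.02 on a log axis, with PSC4 on the left and KPC4 on the right and genes grouped by role. Blue circles are the 3 control libraries and red triangles the 3 Gem libraries. In PSC4 the groups are apart for 31 genes, and in KPC4 they overlap for 21 of the 34 tested.

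The arrest and feedback genes had the highest median of the 4 roles in PSC4. Of the 8, 7 rose, with a median log2 fold change of 2.52, and Rps27l did not pass. Plk3, a polo-like kinase of the stress response, stood at 7.83, 4.64 and 6.27 CPM in the controls and at 168, 119 and 119 CPM with Gem-SU. The groups were far apart, and its log2 fold change was 4.44 with a standard error (SE) of 0.25 (edgeR, adjusted p = 2.1e-05). Its relative Plk2 was at 92.8, 66.2 and 75.5 CPM in the controls and at 1075, 1060 and 986 CPM with Gem-SU, which is 3.73 on the log2 scale (SE 0.19, edgeR adjusted p = 1.93e-05). Gtse1, a microtubule-binding protein that moves p53 out of the nucleus, was at 35.9, 32.9 and 38.7 CPM and at 575, 623 and 474 CPM. All 3 Gem-SU libraries exceeded the highest Gtse1 control, with a log2 fold change of 3.96 (SE 0.18, edgeR adjusted p = 1.56e-05).

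Ccng1, or cyclin G1, which directs a phosphatase to Mdm2, was already abundant in PSC4 controls at 125, 173 and 112 CPM. It reached 713, 921 and 686 CPM with Gem-SU, a log2 fold change of 2.5 (SE 0.22, edgeR adjusted p = 0.000114). The spindle protein Psrc1 rose by 2.53. Smaller rises were those of the phosphatase Ptp4a3 and of Zfp365, a protein of genome stability, the latter at 1.17. Ptp4a3 was at 13.4, 7.23 and 13.7 CPM in the controls and at 41.9, 35.5 and 19.8 CPM with Gem-SU, with no overlap between the groups (1.5, SE 0.33, edgeR adjusted p = 0.00682). The call of Zfp365 was lost in a fit over all 12 libraries (1.12, edgeR adjusted p = 0.124). Rps27l, a ribosomal protein that binds Mdm2 and closely resembles Rps27, overlapped between the groups, with means of 87.4 CPM ± 19.9 and 112 CPM ± 33.4 (SD, n = 3 each), and its reads may be shared with that gene.

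Gtse1 and Psrc1 are also genes of dividing cells, so 12 proliferation genes were set beside them. In PSC4 6 of the 12 rose and 1, Ccnb2, fell, against 24.3% and 22% of all genes tested. The 12 had a median log2 fold change of 0.43. Their summed level lay between 2321 and 3516 CPM in the controls and between 4181 and 6477 CPM with Gem-SU. Mki67, the proliferation antigen, rose by 1.49 and Bub1, a spindle checkpoint kinase, by 1.25, while Plk1 had a fold change of -0.04 and Aurkb of 0.01. The highest value of the 12 was that of Cenpe, a kinetochore motor, at 1.72. The part of proliferation in their rise was not tested.

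Death and survival genes rose in 11 of 12 cases in PSC4, with a median log2 fold change of 1.93. Pidd1, the scaffold that activates caspase-2, stood at 8.0, 6.09 and 8.38 CPM in the controls and at 100, 120 and 78.7 CPM with Gem-SU (log2 fold change 3.73, SE 0.22, edgeR adjusted p = 2.39e-05). The receptor Eda2r, which binds ectodysplasin A2, went from 18.4, 20.8 and 19.2 CPM to 180, 328 and 231 CPM, by 3.66 (SE 0.24, edgeR adjusted p = 3.74e-05). In both genes the lowest Gem-SU library was several times the highest control. Perp, a membrane protein of epithelial junctions, was close to absent in PSC4: the controls held 3, 0 and 6 counts and the Gem-SU libraries 33, 26 and 33 counts. From the summed counts it was 9.78-fold higher, with a 95% exact interval from 4.93 to 22.1 that covers counting error only, and the fitted log2 fold change of 3.25 (SE 0.82, edgeR adjusted p = 0.0122) depends on a prior count. KPC4 controls held Perp at 71.3 CPM ± 3.16 (SD, n = 3). The epithelial markers summed to between 15.77 and 22.19 CPM with Gem-SU. The largest of them in the controls, Muc1, fell from a mean of 10.9 to 6.33 CPM (-0.79, edgeR adjusted p = 0.0164), while the keratin Krt19 rose from 2.95 to 7.65 CPM (1.38, edgeR adjusted p = 0.00441). Krt7 averaged 1.5 and 3.26 CPM and did not pass (1.11, edgeR adjusted p = 0.138). Krt8 averaged 0.517 and 0.655 CPM and Krt18 0.182 and 0.2115 CPM. Cldn7 had at most 4 counts in a control library and 0 with Gem-SU, and Elf3 at most 1 and 2 counts. The part of these markers in the rise of Perp was not tested.

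The death receptors Fas and Tnfrsf10b rose less than Eda2r. Fas was at 15.8, 13.1 and 12.6 CPM in PSC4 controls and at 43.6, 50.7 and 30.8 CPM with Gem-SU, a log2 fold change of 1.59 (SE 0.22, edgeR adjusted p = 0.000709). Tnfrsf10b, the receptor of the ligand TRAIL, rose by 2.11. Among genes that act inside the cell, the nuclease Aen rose by 3.06 and Trp53inp1, a p53 cofactor that also takes part in autophagy, by 2.98.

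Lesser rises were those of Phlda3, Zmat3, Ei24 and Apaf1. Phlda3, which keeps the kinase Akt from the membrane, was at 62.9, 34.2 and 41.2 CPM and at 182, 176 and 109 CPM (1.76, SE 0.27). The RNA-binding protein Zmat3 was at 48.9, 47.3 and 38.8 CPM and at 122, 166 and 114 CPM (1.57, SE 0.18). Ei24, a protein of the endoplasmic reticulum, was at 90.4, 68.3 and 74.8 CPM and at 220, 221 and 147 CPM (1.33, SE 0.20). In these 3 genes no library of one group reached the range of the other, and the same held for Apaf1. That scaffold of the apoptosome was at 85.3, 97.4 and 102 CPM and at 170, 262 and 191 CPM (1.13, SE 0.19). Triap1, a survival factor of mitochondria and the remaining member of this group, overlapped between the groups at 0.19 (SE 0.43).

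Of the 5 DNA repair genes 3 rose in PSC4. Polk, a polymerase that copies past DNA lesions, was at 14.9, 20.3 and 17.4 CPM in the controls and at 126, 204 and 143 CPM with Gem-SU, a log2 fold change of 3.17 (SE 0.23, edgeR adjusted p = 5.2e-05). Ercc5, the nuclease that cuts on the 3′ side of a lesion in nucleotide excision repair, was at 25.8, 35.6 and 29.6 CPM and at 149, 212 and 172 CPM (2.55, SE 0.19, edgeR adjusted p = 6.13e-05). Rrm2b, the p53-dependent subunit of ribonucleotide reductase, was at 26.4, 32.1 and 29.9 CPM and at 50.5, 60.8 and 72.6 CPM (1.06, SE 0.18, edgeR adjusted p = 0.00169). The groups were apart in each of the 3, by most in Polk. Xpc and Ddb2, which recognise lesions for the same repair pathway, did not pass, at 0.33 (SE 0.16) and -0.18 (SE 0.23). Ddb2 shares 23.8% of its exonic bases with Acp2 on the opposite strand, and whether strand was used in counting was not given in the sources used here.

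The metabolism and growth signalling genes included both extremes of the list in PSC4. Of the 10, 8 rose and 1 fell, with a median of 1.23. Ddit4l, an inhibitor of the growth kinase mTOR, had 10, 6 and 2 counts in the controls and 156, 242 and 182 counts with Gem-SU, that is 0.290, 0.189 and 0.0650 CPM against 4.05, 7.27 and 6.17 CPM. Its log2 fold change of 4.96 (SE 0.51, edgeR adjusted p = 0.000202) was the largest of the 35, at a level that stayed low. Slc19a2, a thiamine transporter, was at 17.5, 18.4 and 17.3 CPM and at 143, 206 and 154 CPM (3.24, SE 0.18, edgeR adjusted p = 2.05e-05). Dcxr, a reductase of sugars and dicarbonyls, was at 8.90, 7.01 and 7.38 CPM and at 38.2, 44.1 and 20.1 CPM (2.14, SE 0.29, edgeR adjusted p = 0.000727).

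Sesn1, a sestrin that restrains mTOR when amino acids are scarce, was the member that fell. Its level was 70.9, 75.0 and 68.8 CPM in the controls and 30.6, 28.0 and 22.7 CPM with Gem-SU, so that the groups lay far apart in the opposite order (log2 fold change -1.40, SE 0.16, edgeR adjusted p = 0.000312). Its relative Sesn2 rose by 3.25 in the same libraries. Fdxr, which passes electrons to mitochondrial ferredoxin, was at 8.96, 4.86 and 8.68 CPM and at 25.5, 24.2 and 15.5 CPM (1.53, SE 0.29). Cpt1c, the neuronal form of carnitine palmitoyltransferase, rose by 1.36 and the lipid kinase Dgka by 1.10 (SE 0.19). Dgka was at 20.7, 30.4 and 24.2 CPM in the controls and at 49.2, 63.8 and 48.4 CPM with Gem-SU, with no overlap. Tigar, a phosphatase that diverts sugar from glycolysis, rose by 0.78.

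Calls near the threshold in PSC4 were those of Ak1 and Ephx1. Ak1, an adenylate kinase, passed at 0.85 (SE 0.26, edgeR adjusted p = 0.0272) although its groups overlapped. It did not pass without Control-SU replicate 2 (0.77, edgeR adjusted p = 0.0813), without Control-SU replicate 3 (0.69, edgeR adjusted p = 0.112), without Gem-SU replicate 1 (0.70, edgeR adjusted p = 0.054), without Gem-SU replicate 2 (0.72, edgeR adjusted p = 0.103) or in a fit over all 12 libraries (0.80, edgeR adjusted p = 0.151). Ephx1, the microsomal epoxide hydrolase, lay below its controls in all 3 Gem-SU libraries, with means of 75.4 CPM ± 2.40 and 48.1 CPM ± 16.3 (SD, n = 3 each), and did not pass (-0.65, edgeR adjusted p = 0.0563). Without Gem-SU replicate 1 it did (-0.85, edgeR adjusted p = 0.015). The authors' deposited table gave to 31 of the 35 genes an adjusted p under 0.05 in PSC4, 29 higher and 2 lower, against 42.9% of the 15110 genes with a value, and the gene added to those above was Ephx1 at -0.68.

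**Figure D2:**
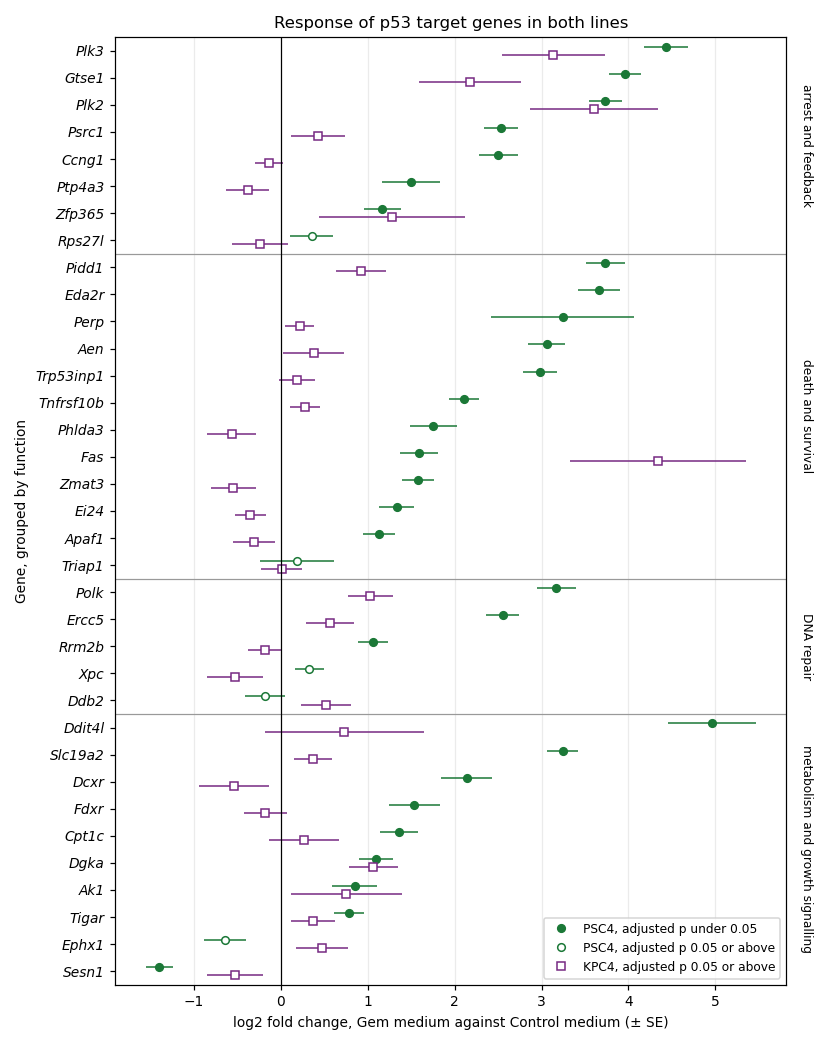
Log2 fold change of each gene between Gem and Control medium, with bars of 1 standard error. PSC4 is shown as green circles, filled where the adjusted p was under 0.05, and KPC4 as open purple squares, because none of the 34 genes tested there passed. Most green points lie to the right of the purple ones, Sesn1 lies left of 0, and Fas is the gene with the largest value in KPC4.

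In KPC4 cells, which received medium from the stellate cells, 0 of the 34 genes tested passed the same edgeR test, and so did 0% of all 13236 genes tested. At an unadjusted p under 0.05 there were 7 of the 34, all higher, beside 17% of all genes, 10.9% higher and 6.07% lower. The median log2 fold change was 0.32 over the 34 genes (0.14 without Gem-PSC-SU replicate 1) and -0.0194 over all genes. The Gem-PSC-SU libraries lay entirely above the controls for 10 of the 34 genes (11.8% of all genes) and entirely below for 3 (10.9%), and for 21 the groups overlapped. Eda2r was left out by the filter on low counts. Fas passed that filter through its Gem-PSC-SU libraries alone, so it could enter this test only as a gene that was higher.

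Same-numbered KPC4 libraries deviated together, so each result was also fitted with the replicate number as a block. The labels do not say that the numbers mark pairs, so calls with the block rest on an assumption. With the block 5 of the 34 genes passed, all higher: Plk3, Gtse1, Fas, Pidd1 and Polk. The call of Fas has the same limit from the filter on low counts. Among all genes 8.85% passed with the block, 6.07% higher. DESeq2 called 6 members without the block, namely Plk2, Plk3, Gtse1, Fas, Polk and Dgka, all higher, against 5.95% of all genes in either direction. Of all genes 5.11% were higher and 0.84% lower. On simulated data DESeq2 had made more false calls than edgeR (21.8% of its calls against 7.81%). Those counts were drawn with edgeR's dispersion estimates and filtered on low counts, so the shares do not measure false calls among these 6. The authors' deposited table listed 5 with an adjusted p under 0.05, namely Plk2, Plk3, Gtse1, Polk and Dgka, all higher, against 5.17% of the 13791 genes with a value.

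The arrest genes Plk3, Plk2 and Gtse1 were again among the largest differences, with wide spread between the Gem-PSC-SU libraries. Plk3 was at 4.55, 8.48 and 6.53 CPM in KPC4 controls and at 15.4, 96.1 and 60.5 CPM with Gem-PSC-SU (log2 fold change 3.14, SE 0.59, edgeR adjusted p = 0.112). With the block its adjusted p in edgeR was 0.00804. Plk2 was at 13.8, 15.03 and 13.0 CPM and at 40.6, 384 and 84.5 CPM (3.60, SE 0.74, edgeR adjusted p = 0.115), and its adjusted p with the block was 0.119. All Gem-PSC-SU libraries exceeded all controls in both kinases, but replicate 1 lay well below the other 2. Gtse1 was at 7.87, 33.2 and 10.7 CPM in the controls and at 40.6, 125 and 68.4 CPM with Gem-PSC-SU (2.18, SE 0.59, edgeR adjusted p = 0.151). With the block its adjusted p in edgeR was 0.000761.

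Control-PSC-SU replicate 2 stood above the other 2 controls in Gtse1 and likewise in the proliferation genes. Mki67 was at 191, 512 and 189 CPM in the controls and at 842, 1893 and 950 CPM with Gem-PSC-SU. The 12 proliferation genes had positive fold changes throughout, with a median of 1.52, and summed to between 725.5 and 2067 CPM in the controls and to between 3076 and 5167 CPM with Gem-PSC-SU. Of the 12, 9 passed with the block, all higher, against 8.85% of all genes, 6.07% higher. Psrc1, the other spindle protein of the list, overlapped between the groups, at 8.16, 7.80 and 8.64 CPM and at 16.3, 7.47 and 9.23 CPM. The part of proliferation in the values of Gtse1 was not tested.

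**Figure D3:**
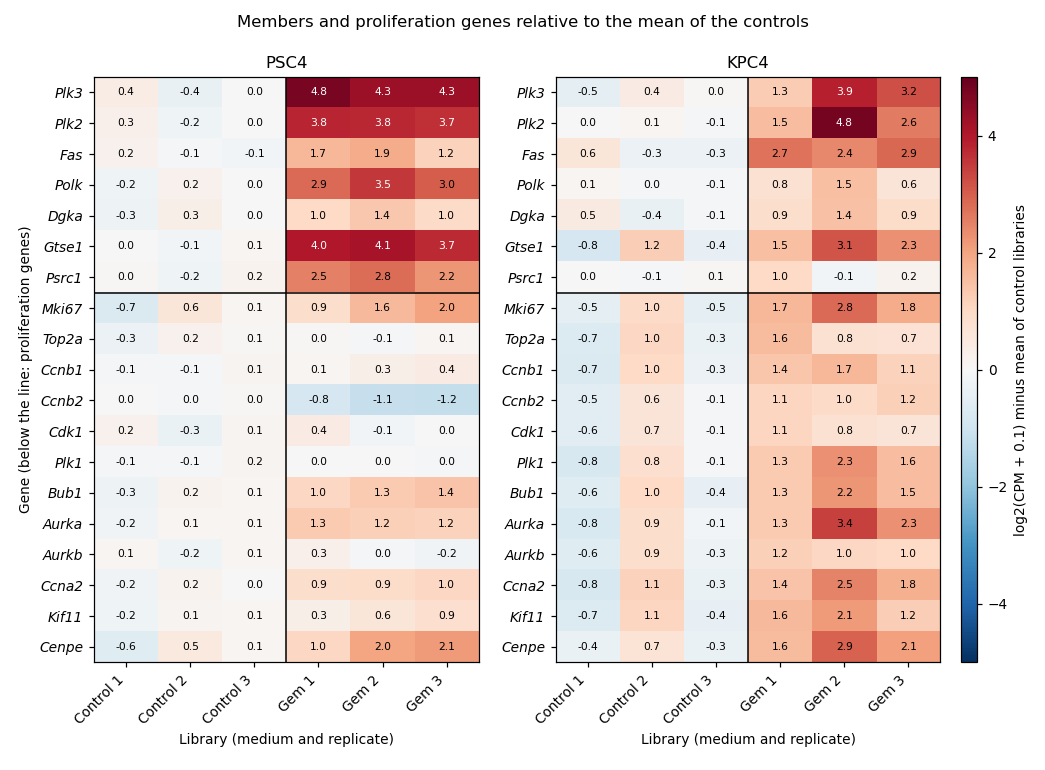
Values in each library relative to the mean of the 3 control libraries of the same line, as differences of log2(CPM + 0.1), for 7 p53 targets above the line and 12 proliferation genes below it. Red is higher and blue lower than the control mean. In KPC4 the second control is above the other controls in Gtse1 and in the proliferation genes, and the first Gem library is the lowest of the 3 in Plk2, Plk3 and Gtse1.

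Fas had the largest fitted value of the 34 genes in KPC4, at the edge of detection. The controls held 3, 0 and 0 counts and the Gem-PSC-SU libraries 20, 18 and 21 counts. From the summed counts it was 22.2-fold higher, with a 95% exact interval from 7.25 to 111 for counting error only (fitted log2 fold change 4.34, SE 1.01, edgeR adjusted p = 0.124). With the block its adjusted p in edgeR was 0.0415. Its level was at most 0.791 CPM in KPC4 and at least 12.6 CPM in PSC4. In KPC4 the stellate markers summed to between 2417 and 2806 CPM in the controls and to between 1848 and 2208 CPM with Gem-PSC-SU, and Pdgfrb, Dcn, Thy1 and Des were not listed for KPC4. Most of that sum was Vim, with means of 2588 and 2053 CPM. Col3a1 averaged 21.9 CPM in the controls and 19.0 CPM with Gem-PSC-SU, and Col1a1 7.92 and 5.84 CPM. Fap had at most 1 count in a control library and between 1 and 21 counts with Gem-PSC-SU. Pdgfra averaged 0.498 and 0.693 CPM, Col1a2 0.16 and 0.273 CPM and Acta2 0.098 and 0.155 CPM. The part of these markers in the Fas values was not tested. Eda2r had 0, 2 and 2 counts in the controls and 3, 9 and 11 counts with Gem-PSC-SU.

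Polk and Dgka were higher in KPC4 by about equal amounts. Polk was at 28.5, 25.6 and 25.2 CPM and at 45.3, 75.7 and 41.0 CPM (1.03, SE 0.26, edgeR adjusted p = 0.134), and passed with the block (edgeR adjusted p = 0.0304). Dgka was at 20.2, 11.2 and 14.0 CPM and at 26.9, 40.4 and 27.9 CPM (1.06, SE 0.28, edgeR adjusted p = 0.145; with the block 0.0504). In both the groups did not overlap. Pidd1 was at 3.49, 6.05 and 4.25 CPM and at 7.34, 8.84 and 9.98 CPM (0.92, SE 0.29, edgeR adjusted p = 0.181; with the block 0.0468).

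The KPC4 counts rested on single libraries. Without Gem-PSC-SU replicate 1, 7 of the members passed: Plk2, Plk3, Gtse1, Polk and Dgka higher, and Zmat3 (-0.85) and Sesn1 (-0.99) lower, against 8.3% of all genes, 6.31% higher and 1.99% lower. Without Control-PSC-SU replicate 2 only Gtse1 passed (3.08, edgeR adjusted p = 0.0322), against 1.29% of all genes, 1.27% higher and 0.0148% lower. Leaving out any of the other 4 KPC4 libraries left 0 members past the threshold.

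The response differed between the lines for 20 of the 35 genes. The test was an interaction term, fitted to the 12 libraries together over the genes listed for both lines. All 35 genes could be tested, and 9.85% of 13632 genes passed, 4.75% higher and 5.1% lower. For 19 of the 20 the response was higher in PSC4, and for Fas it was higher in KPC4. The lines differ in cell type, in the medium received and in the step of the transfer, which cannot be told apart.

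By role, the difference passed for 10 of 12 death and survival genes, 3 of 5 repair genes, 4 of 10 metabolism genes and 3 of 8 arrest genes. Plk2 responded by amounts whose difference was 0.10 (SE 0.77), Dgka by amounts whose difference was -0.01 (SE 0.34), and Plk3 and Gtse1 by amounts that differed by 1.26 (SE 0.66) and 1.75 (SE 0.65) without passing. With the replicate block the differences of Plk3 (edgeR adjusted p = 0.0187) and Gtse1 (edgeR adjusted p = 0.00138) passed, and 25 of the 35 genes in all, against 21.9% of all genes. That fit blocks both lines, although the PSC4 numbers were not read as pairs. Ddit4l had the largest difference, 4.16 (SE 1.15, edgeR adjusted p = 0.038), and Perp followed with 2.98 (SE 0.55, edgeR adjusted p = 0.00533), both from very low control levels in PSC4. Slc19a2, well above the floor in all libraries, came next with 2.83 (SE 0.28, edgeR adjusted p = 0.000242).

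Fas, the exception, had a difference of -2.79 (SE 0.74, edgeR adjusted p = 0.0318). It rests on the few counts of KPC4, and it lost the threshold in 8 of 12 refits with a single library removed (edgeR adjusted p from 0.0505 to 0.0875). These were the refits without each PSC4 library except Gem-SU replicate 1 and those without Control-PSC-SU replicate 2, Control-PSC-SU replicate 3 and Gem-PSC-SU replicate 3. The difference of Ddit4l did not pass in 8 such fits either (edgeR adjusted p from 0.0502 to 0.0966), the same as for Fas but with Control-PSC-SU replicate 1 in place of replicate 2. Without Gem-SU replicate 2 the differences of Apaf1 (1.16), Fdxr (1.55) and Ptp4a3 (1.74) did not pass. That of Apaf1 also did not pass without Control-SU replicate 1 (1.31) or Gem-PSC-SU replicate 3 (1.26), and that of Fdxr without Control-PSC-SU replicate 3 (1.64). Without Gem-PSC-SU replicate 2 the differences of Plk2 (1.51, edgeR adjusted p = 0.0161) and Gtse1 (2.24, edgeR adjusted p = 0.0347) passed.

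Of the 34 genes tested in both lines, 21 had the same fitted sign and 13 opposite signs. Among the 20 genes with a difference between the lines, 9 rose in PSC4 and had a negative value in KPC4 that did not pass: Ccng1, Ptp4a3, Apaf1, Ei24, Phlda3, Zmat3, Rrm2b, Dcxr and Fdxr. Ccng1 in KPC4 was at 115, 101 and 100 CPM in the controls and at 100, 95.4 and 91.5 CPM with Gem-PSC-SU (-0.14, SE 0.16), a difference within the spread of the replicates. The difference between the lines was 2.59 (SE 0.27, edgeR adjusted p = 0.000295).

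For Ptp4a3, Ei24 and Phlda3 all 3 Gem-PSC-SU libraries of KPC4 lay below the controls. Ptp4a3 was at 7.70, 7.17 and 6.83 CPM and at 4.77, 5.30 and 6.56 CPM (-0.38, SE 0.25). Ei24 was at 53.3, 58.6 and 60.4 CPM and at 46.8, 38.1 and 50.2 CPM (-0.35, SE 0.18). Phlda3 was at 26.0, 24.2 and 25.1 CPM and at 22.3, 10.1 and 18.4 CPM (-0.57, SE 0.29). The edgeR test passed for 0 of the 3, and the lowest of their adjusted p was 0.354.

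The other 5 overlapped between the KPC4 groups. Zmat3 was at 32.0, 30.4 and 28.1 CPM and at 28.4, 14.5 and 19.1 CPM (-0.55, SE 0.26), the Gem-PSC-SU value of replicate 1 falling within the controls. Apaf1 was at 130, 115 and 118 CPM and at 137, 73.5 and 82.8 CPM (-0.31, SE 0.24), again with replicate 1 the highest. Rrm2b was at 36.0, 30.4 and 29.3 CPM and at 32.8, 26.2 and 25.2 CPM (-0.18, SE 0.20). In each of these 3 genes the SD was larger between Gem-PSC-SU libraries than between controls. Dcxr was at 6.34, 3.44 and 6.60 CPM and at 4.17, 2.11 and 4.97 CPM (-0.54, SE 0.40). Fdxr was at 10.4, 8.33 and 9.85 CPM and at 9.33, 6.45 and 9.49 CPM (-0.18, SE 0.25).

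Sesn1, which fell in PSC4, was at 20.2, 21.4 and 21.7 CPM in KPC4 controls and at 22.5, 9.11 and 12.2 CPM with Gem-PSC-SU. The groups overlapped through replicate 1 (-0.53, SE 0.32), and the difference between the lines did not pass (-0.93, SE 0.38, edgeR adjusted p = 0.146).

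In the control media 18 of the 35 genes differed between the lines, 14 higher and 4 lower in PSC4, and between 13 and 21 when 1 library was left out. Of all genes 42.9% differed, 22.3% higher and 20.6% lower (CPM here are scaled over all 12 libraries). The receptors Eda2r and Fas averaged 19.7 and 14.0 CPM in PSC4 and 0.0428 and 0.0293 CPM in KPC4. Perp had the opposite order, with 0.0954 CPM in PSC4 and 72.5 CPM in KPC4, and so did Tnfrsf10b, with 19.9 CPM and 116 CPM (-2.55, SE 0.18). Ak1 (5.17), Zfp365 (4.89), Cpt1c (3.07), Plk2 (2.48) and Sesn1 (1.75) were higher in PSC4 by the log2 differences given. Trp53inp1 (-1.14) and Xpc (-1.18) were lower in PSC4.

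**Figure D4:**
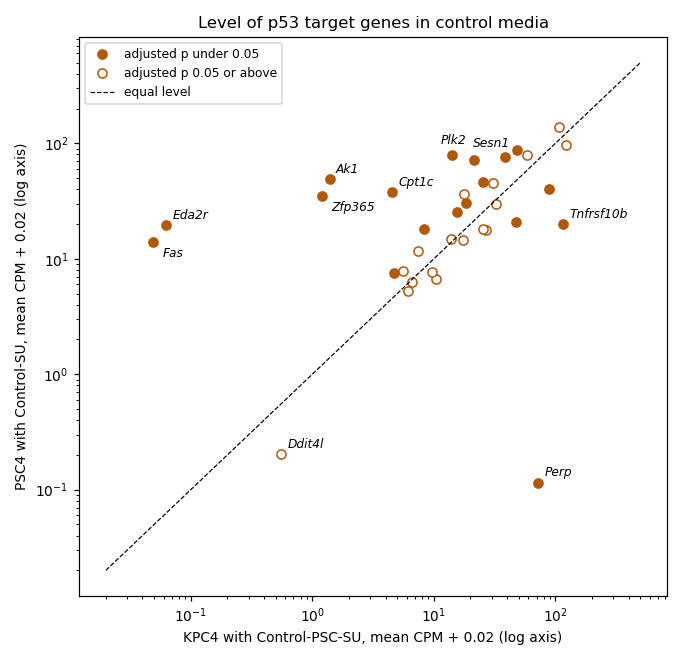
Mean level of each of the 35 genes in control medium in KPC4 (horizontal) and PSC4 (vertical), as CPM + 0.02 on log axes, with filled points where the lines differed at an adjusted p under 0.05. The dashed line marks equal levels. Eda2r, Fas, Ak1 and Zfp365 lie far above it and Perp far below.

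A separate list held 12 other genes of the p53 pathway. In PSC4 9 of the 12 rose, against 24.3% of all genes tested, with a median log2 fold change of 2.79. Mdm4, Bax and Gadd45a did not pass, at 0.48, 0.77 and 0.46. Trp53, which encodes p53, rose by 0.76 (SE 0.18), and Mdm2 and Cdkn1a by 5.50 and 4.64. The antiproliferative gene Btg2 rose by 5.97 and the secreted stress factor Gdf15 by 5.26. The apoptosis genes Pmaip1 and Bbc3 rose by 4.63 and 2.33 and the phosphatase Ppm1d, which acts back on p53, by 2.20. In KPC4 0 of the 12 passed without the block in edgeR, as did 0% of all genes. At an unadjusted p under 0.05 there were 8, all higher, against 17% of all genes, 10.9% higher. With the block 6 passed, all higher, against 8.85% of all genes, 6.07% higher. The median of the 12 in KPC4 was 0.81. Pmaip1, at 31.1, 19.0 and 23.9 CPM and at 71.5, 158 and 110 CPM, had the smallest p of the 12 (2.20, SE 0.32, edgeR adjusted p = 0.106, and 0.0252 with the block). The difference between the lines passed for 6 of the 12, all with the higher response in PSC4, against 9.85% of all genes, 4.75% higher.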

How the data were processed

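Per the labels' protocols, total RNA was sequenced on an Illumina NovaSeq X Plus instrument. Trim Galore 0.6.10, cutadapt 5.2, FastQC, Salmon, R 4.5.1 and DESeq2, and the build GRCm39, are named in the submitters' processing notes, without their order or settings. The authors deposited per line whole-number counts per gene and library, and a table of their own comparison, which gives per symbol the log2 fold change with its p-value, plain and adjusted. The smallest row total was 0 in PSC4 and 11 in KPC4, so the KPC4 table may lack low genes by a rule not given in the sources used here. Identifiers were matched to GENCODE M21 symbols (99.7% in each line). Of per-sample columns 0 were left unused.

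Counts were tested with edgeR 4.0.16 (R 4.3.3, limma 3.58.1): filterByExpr, TMM scaling, robust quasi-likelihood test, Benjamini-Hochberg adjustment over all genes at 0.05. CPM are counts scaled to the TMM-adjusted library total, with factors computed within each line. The SE is the fold change divided by the root of F. On simulated data with 200 changed genes, edgeR found 88% of changes by 4-fold in PSC4, 84.4% in KPC4 and 63.2% for the difference between the lines. By 2-fold it found 43.4%, 26.6% and 8.2%. In the PSC4 data 6177 genes passed, so these shares hold for the simulated setting and need not hold for the data. Alternatives were DESeq2 1.42.0 and its size factors, 2 other count filters, robust estimation off, one fit over all libraries, the replicate block and leaving out each library. Offsets for GC content and length (loess span 0.5) were added after seeing the data. Counting error matters at these depths for genes with few counts, and intervals cover counting error only.

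All pairs of replicates differed by more than counting noise (chi-square per degree of freedom at least 32). The labels call them biological replicates but do not say that they came from separate cultures, so p-values measure the spread between these samples. Same-numbered KPC4 libraries deviated together from the means of their groups, with correlations of 0.351, 0.436 and 0.211. Each exceeded 0.1, and from these values alone the numbers were read as pairs. Libraries of unlike number were not compared, and the labels name no shared batch. The pairing is therefore an assumption of the block fits, made from the same counts that they test. In PSC4 the correlations were 0.428, -0.0548 and 0.102, and the numbers were not read as pairs.

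The 35 genes, the other lists and the tests were chosen with earlier results of these data known. Values in every library are given for the 3 largest changes among called genes of each role in PSC4, every gene that fell there, the 5 smallest p in KPC4 and the genes whose direction differed between lines with a called difference. Those given for Pidd1, Gtse1, Psrc1, Mki67, Sesn1, Eda2r and Pmaip1 in KPC4 were chosen after their values were seen.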

Additional observations from a re-analysis of the deposited data

Results flagged for a closer look

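For 20 of the 35 genes the change with Gem medium differed between PSC4 and KPC4 when the difference itself was tested, as an interaction term (edgeR, adjusted p under 0.05, which 9.85% of all genes tested reached). Values are the log2 response in PSC4 minus that in KPC4. Among the arrest and feedback genes it was 2.59 for Ccng1, 2.05 for Psrc1 and 1.83 for Ptp4a3. Among the death and survival genes it was 2.98 for Perp, 2.76 for Pidd1, 2.74 for Trp53inp1, 2.64 for Aen, 2.27 for Phlda3, 2.07 for Zmat3, 1.78 for Tnfrsf10b, 1.63 for Ei24 and 1.38 for Apaf1. Fas had the opposite sign, at -2.79. For the repair genes it was 2.10 for Polk, 1.94 for Ercc5 and 1.19 for Rrm2b. For the metabolism genes it was 4.16 for Ddit4l, 2.83 for Slc19a2, 2.62 for Dcxr and 1.66 for Fdxr. Perp and Ddit4l were close to the floor in PSC4 controls, and Fas in all KPC4 libraries.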

How the results depend on the processing

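In PSC4 the count of members past the threshold was 30 and stayed between 29 and 30 when 1 library was left out, while that of all genes lay between 4061 and 6826, the lowest without Gem-SU replicate 2. In KPC4 0 members and 0 genes passed, and this changed most with the processing. With the replicate block 5 members and 1171 genes passed. DESeq2 gave 6 and 822, one fit over all 12 libraries 6 and 610, and the block with GC and length offsets, added after seeing the data, 6 and 1219. The joint fit takes its dispersion, its filter on low counts and its scaling from both lines. For all of these alternatives the cause of the change was not tested. Leaving out 1 library gave 0 to 7 members and 0 to 1129 genes, the gene counts being 1129, 174 and 1 after removal of Gem-PSC-SU replicate 1, of Control-PSC-SU replicate 2 and of Gem-PSC-SU replicate 2. For the difference between the lines, 20 members and 1343 genes passed. With the block in both lines 2988 genes did, and under DESeq2 2145 genes. Leaving out 1 library gave 15 to 24 members and 610 to 1993 genes. The difference in control level, 18 members and 5842 genes, lay between 13 and 21 members and between 4954 and 6272 genes. In PSC4, where the numbers were not read as pairs, 31 members passed with the block, 29 higher and 2 lower. So did 7266 of all 13347 genes tested, 3721 higher and 3545 lower.

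Signs reversed only for values that did not pass. When 1 library was left out, Triap1 lay between -0.19 and 0.70 in PSC4 (main value 0.19; -0.05 without Gem-SU replicate 1). In KPC4 the ranges were -0.12 to 0.15 for Triap1 (main value 0.0073; -0.06 and -0.03 without replicate 1 of the controls and of the Gem libraries), -0.45 to 0.024 for Rps27l, -0.035 to 0.29 for Trp53inp1 and -0.71 to 1.25 for Ddit4l. For the last 3 the end with the other sign came without Gem-PSC-SU replicate 1. With the block Triap1 became -0.0077 in KPC4, and with block and offsets -0.0086. The difference of Plk2 lay between -0.38 and 1.51, and was -0.24 without Gem-PSC-SU replicate 3. The median over the KPC4 members, 0.32, was 0.16 with block and offsets. Ephx1 passed in PSC4 under 5 of 14 alternatives. Depth limits Perp and Ddit4l in PSC4 and Fas and Eda2r in KPC4, whose control libraries held few counts.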
